A study of Homo sapiens with 16 samples.

Results

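The 10 genes described here make the enzymes that hydroxylate and cross-link collagen, together with 1 oxidase that supplies oxidizing power to the endoplasmic reticulum. They are the prolyl 4-hydroxylase alpha subunits P4HA1, P4HA2 and P4HA3, the lysyl hydroxylases PLOD1, PLOD2 and PLOD3, the lysyl oxidases LOX, LOXL1 and LOXL2, and ERO1A. They were listed by name, with no threshold on a value, when earlier results of these data were known. Of the 10, 9 were among the 13559 genes of the first experiment, and the same 9 were among the 14024 genes of the second. LOXL1 was listed in neither and is not analysed here.

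LN229, a line of human glioblastoma (GBM) cells, was sequenced as RNA in 8 groups of 2 libraries each, 16 libraries in all. The values were deposited as 2 sets, called the first and the second experiment here, and the labels name no batch. In the first experiment, untreated cells were kept in regular culture, which is complete medium with 10% serum, or under the ischemic condition, which is medium with 2 mM glucose, 0.1 mM glutamine and 1% serum at about 1% oxygen. In the second experiment, cells in regular and in ischemic culture were given DMSO (the vehicle), VX745 (an inhibitor of the stress kinase p38α) or MK25 (used as an inhibitor of MK2, a kinase that p38 activates), which makes 6 groups. The methods of the study give 2 µM for VX745 and 10 µM for MK25, and how long the cells were kept under ischemia is not given in the sources used here. All groups come from 1 parental line without other alleles or transgenes in the labels, and the ischemic condition lowers oxygen, glucose, glutamine and serum together, so that the parts these play cannot be told apart. The methods speak of independent experiments for the in vitro work in general, but the labels do not say whether the 2 libraries of a group came from separate cultures, and if they did not, the p-values measure only the spread between these libraries, which may be technical.

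Collagen chains are modified as they enter the endoplasmic reticulum. Prolyl 4-hydroxylase, made of P4HA alpha subunits and the beta subunit P4HB (protein disulfide isomerase), converts prolines to hydroxyproline, which stabilizes the triple helix, and the PLOD enzymes convert lysines to hydroxylysine, the starting point of sugar attachment and of stable cross-links. Both groups of enzymes need oxygen, iron, 2-oxoglutarate and ascorbate. Lysyl oxidases are secreted copper enzymes that use oxygen to turn lysines of collagen and elastin into the aldehydes from which cross-links form. ERO1A passes electrons from protein disulfide isomerase to oxygen, which allows disulfide bonds to form in proteins that are being folded. P4HA1, P4HA2, PLOD2, LOX and ERO1A are known in many cells as genes induced by low oxygen through hypoxia-inducible factor.

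The promoters of 8 of the 10 members are in the RefSeq table used here (assembly GRCh38.p14). Each listed window of 250 bases was searched for the core of the hypoxia response element, ACGTG or GCGTG. Both strands were searched (so also CACGT and CACGC, where a CACGTG would count on each strand). The window, or the first one for LOX, lay directly before the gene start in all but P4HA2. The P4HA2 window, chr5:132227092-132227341, lies inside the gene, which starts at 132227853 on the minus strand. The bases directly before that start were not searched. At least 1 match was found in 15172 of 35116 such windows of all genes, which is 43.2%. P4HA1 had 1 match, PLOD1 and ERO1A 2 each, PLOD2 3 and LOX 4 in the first of its 3 listed windows. PLOD3 and LOXL1 had none, nor did the P4HA2 window inside the gene. The windows of P4HA1, PLOD2, ERO1A and LOX are printed here, and the part of the matches in the levels of these genes was not tested. All 4 are read 5′ to 3′ on the minus strand, at chr10:73096867-73097116 for P4HA1, chr3:146161185-146161434 for PLOD2, chr14:52695559-52695808 for ERO1A and chr5:122078260-122078509 for LOX, and capitals mark the matches.
P4HA1: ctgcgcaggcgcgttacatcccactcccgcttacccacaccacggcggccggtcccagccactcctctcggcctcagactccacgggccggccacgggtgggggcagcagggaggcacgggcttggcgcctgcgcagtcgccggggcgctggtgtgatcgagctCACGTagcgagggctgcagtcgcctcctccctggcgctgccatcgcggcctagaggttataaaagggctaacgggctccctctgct
PLOD2: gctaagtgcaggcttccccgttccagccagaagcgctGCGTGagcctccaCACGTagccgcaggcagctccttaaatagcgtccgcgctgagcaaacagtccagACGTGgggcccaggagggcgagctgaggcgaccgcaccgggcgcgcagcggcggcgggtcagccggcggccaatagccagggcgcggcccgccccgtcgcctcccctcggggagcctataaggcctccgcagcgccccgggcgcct
ERO1A: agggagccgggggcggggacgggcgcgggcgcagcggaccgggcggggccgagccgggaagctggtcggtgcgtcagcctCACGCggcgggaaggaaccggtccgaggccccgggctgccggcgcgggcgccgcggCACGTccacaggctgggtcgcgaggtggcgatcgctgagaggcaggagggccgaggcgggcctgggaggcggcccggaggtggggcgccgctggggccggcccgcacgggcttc
LOX: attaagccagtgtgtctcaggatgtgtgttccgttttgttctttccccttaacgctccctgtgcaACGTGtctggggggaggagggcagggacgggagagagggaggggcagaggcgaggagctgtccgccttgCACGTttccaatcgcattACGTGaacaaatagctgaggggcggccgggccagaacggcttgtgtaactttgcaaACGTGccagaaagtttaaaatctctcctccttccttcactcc
A match is a stretch of letters and was not tested as a binding site. The match began 86 bases before the gene start in P4HA1, and the matches began 213, 200 and 146 bases before it in PLOD2, 170 and 114 bases before it in ERO1A, and 185, 116, 98 and 42 bases before it in LOX.

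The listed genes held 22346073 to 28373993 reads per library in the first experiment and 20122017 to 37562668 in the second. The values are log2 normalized CPM (reads of a gene scaled to a common library size), as the authors deposited them, and since each experiment was normalized on its own, levels are set side by side only within 1 experiment. P4HA1, P4HA2, PLOD1, PLOD2, PLOD3, LOXL2 and ERO1A had at least 1214 reads in every library. P4HA3 and LOX had 10 to 65 and 12 to 39 reads, and counting error weighs on both. Of the glioma and neural markers, 7 of 8 were listed, with VIM between 11.1 and 12.8, CD44 between 9.57 and 9.98 and SOX2 between 3.13 and 6.48 on the log2 scale, while GFAP lay between -0.36 and 1.06. Of 10 markers of other cell types, 6 were listed (CD68, KRT8, DCN, LUM, PDGFRB and ACTA2), and PTPRC, PECAM1, VWF and EPCAM were not. On the log2 scale CD68 lay between 4.47 and 6.01, KRT8 between 3.64 and 5.13 and ACTA2 between 3.18 and 4.56. LUM lay between 2.63 and 3.34, PDGFRB between 1.203 and 2.67 and DCN between 0.06 and 1.504. The summed level of those 6 was 116 to 132 CPM in ischemic and 74.3 to 84.0 CPM in regular libraries of the second experiment, and the 10 most abundant genes took 5.66% to 6.32% and 4.23% to 4.51% of the reads, respectively. Their part in the results was not tested.

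**Figure D1:**
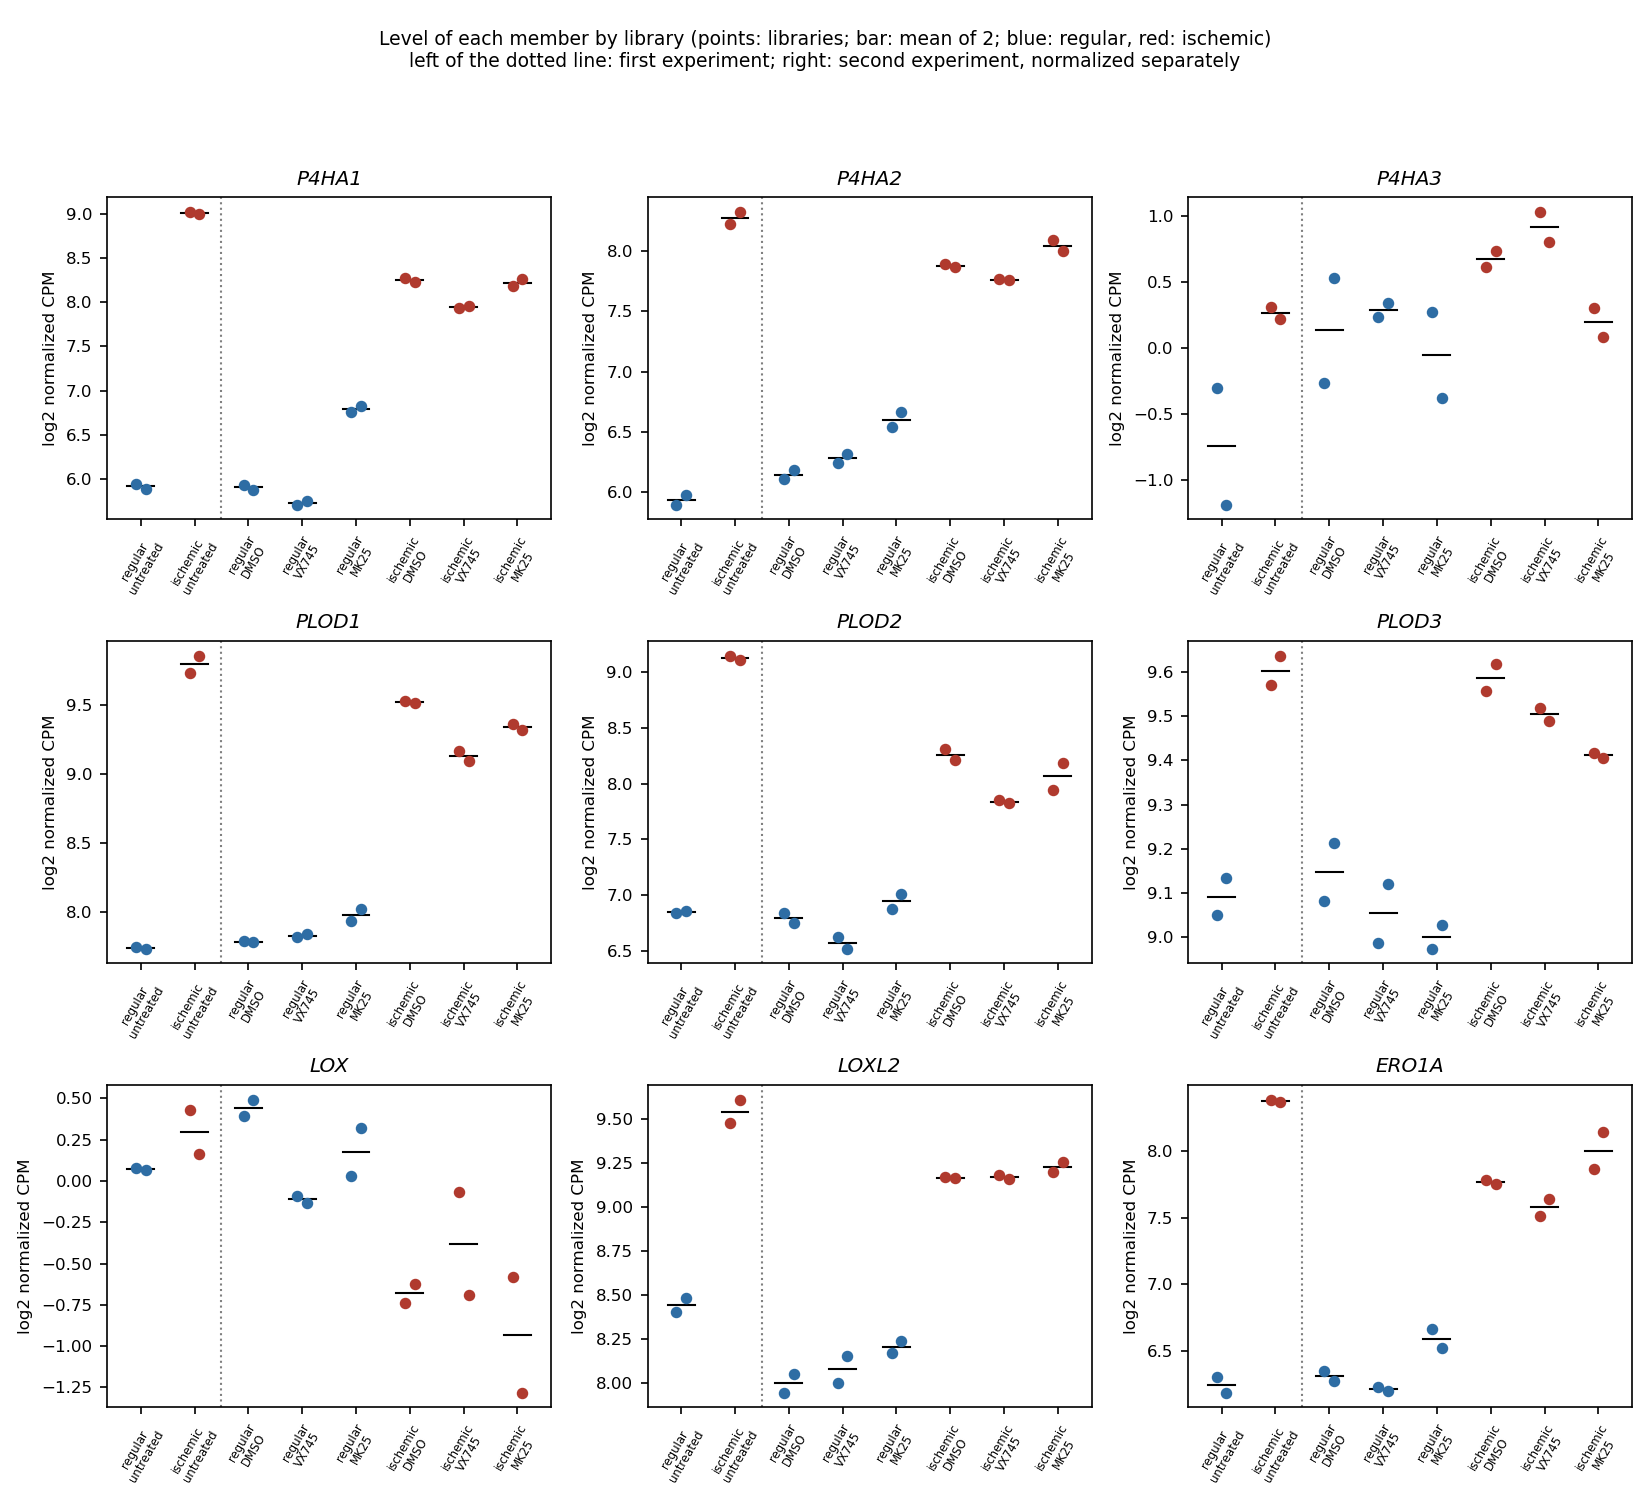
Level of the 9 listed members in each library, as log2 normalized CPM (vertical axis, a scale of its own per gene) by group (horizontal axis). Points are libraries, bars are means of 2 libraries, and the dotted line parts the 2 experiments. In P4HA1, P4HA2, PLOD1, PLOD2, PLOD3, LOXL2 and ERO1A all ischemic libraries sit above all regular libraries of their experiment, while P4HA3 and LOX lie near 0 on this scale.

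The comparison of ischemic with regular culture asks how the cells respond to the shortage. In untreated cells, 7 of the 9 listed members rose under ischemia and none fell, where a call needs an adjusted p under 0.05 over all genes and a change of at least 2-fold, and 11.3% of all 13559 genes were called higher and 9.10% lower. P4HA1 rose 8.58-fold, P4HA2 5.06-fold, PLOD2 4.88-fold, ERO1A 4.40-fold, PLOD1 4.13-fold, LOXL2 2.14-fold and P4HA3 2.02-fold. The count of members called lower was also 0 with limma's voom on the recovered reads and at an unadjusted p under 0.05. The median log2 fold change of the 9 members was 2.05, against -0.01 over all genes. In bulk RNA, a change in the number of cells that express a gene and a change in RNA per cell cannot be told apart.

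With DMSO, 6 of the 9 rose and LOX fell, where 9.03% of all 14024 genes were called higher and 8.11% lower. The median of the members was 1.46 on the log2 scale, against -0.01 over all genes. With VX745 in both cultures, 6 rose and none fell, beside 9.28% of genes higher and 5.21% lower. Voom called no member lower there either, and none was lower at an unadjusted p under 0.05. With MK25 in both cultures, 6 rose and 1 fell, beside 8.56% higher and 5.34% lower. The 6 were P4HA1, P4HA2, PLOD1, PLOD2, LOXL2 and ERO1A in each of these 3 comparisons. Quantile normalization put LOXL2 under 2-fold in all 3, at 0.89 with DMSO, 0.97 with VX745 and 0.93 with MK25 on the log2 scale. The 4 comparisons of cultures use different libraries, and the untreated and DMSO values come from separately normalized experiments, so the difference in size between them was not tested.

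**Figure D2:**
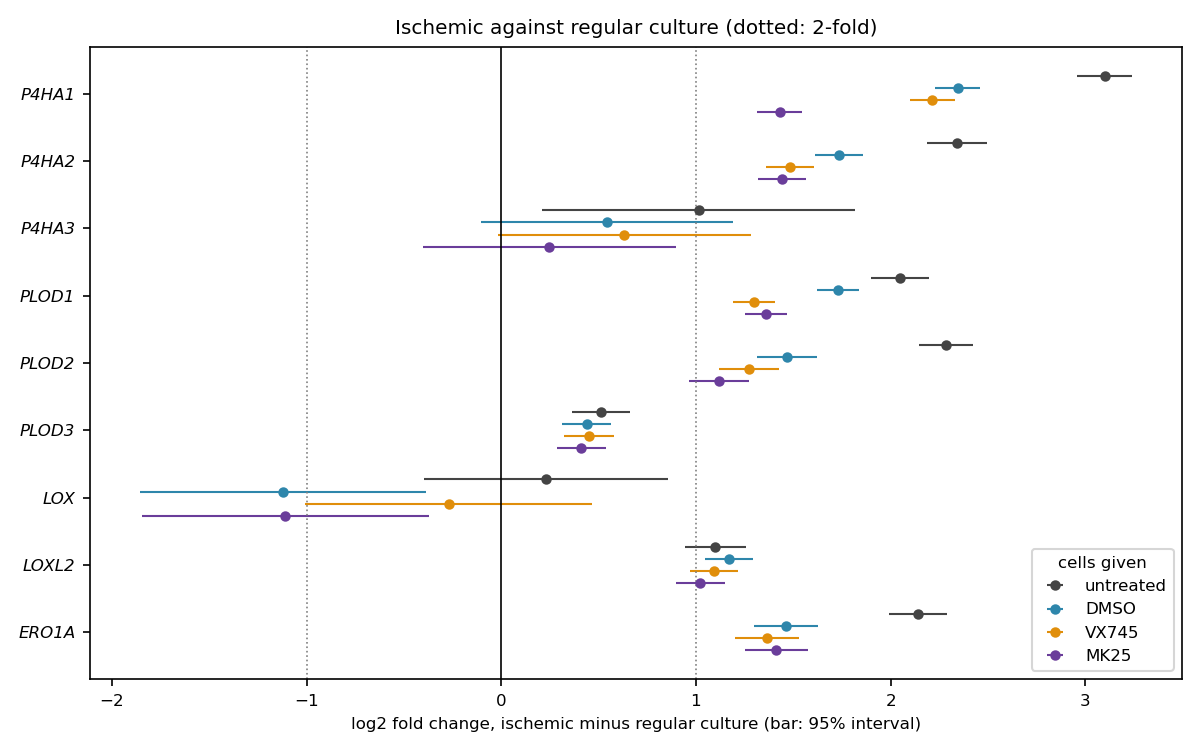
Log2 fold change of ischemic over regular culture (horizontal axis) for each listed member (vertical axis), in untreated cells and in cells given DMSO, VX745 or MK25. Points are limma estimates, bars are 95% intervals and dotted lines mark a 2-fold change. P4HA1 has the highest estimate in untreated cells (3.10) and with DMSO (2.34), and the estimates of LOX lie below 0 with DMSO, VX745 and MK25.

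P4HA1, the most widely expressed catalytic subunit of prolyl 4-hydroxylase, stood at 9.03 and 9.0 in the untreated ischemic libraries and at 5.94 and 5.89 in the regular ones. With DMSO it stood at 8.27 and 8.23 under ischemia and at 5.93 and 5.88 in regular culture. The cultures did not overlap in either experiment. The same held for every listed member, also for LOX in untreated cells (limma adjusted p = 0.492). The share of all genes without overlap was not computed, so a lack of overlap here and below only describes these libraries. The difference on the log2 scale was 3.10 ± 0.06 (SE, adjusted p = 1.88e-12) in untreated cells and 2.34 ± 0.05 (adjusted p = 2.33e-16) with DMSO. In order of mean level, the groups of the second experiment ran from ischemic DMSO (8.25) and ischemic MK25 (8.22), which overlapped, through ischemic VX745 (7.94), regular MK25 (6.79) and regular DMSO (5.90) to regular VX745 (5.73). The gene (Entrez 5033) lies at chr10:73007217-73096866 in GRCh38.p14.

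P4HA2, the second alpha subunit (Entrez 8974, chr5:132190147-132227853), stood at 8.23 and 8.33 in untreated ischemic libraries and at 5.90 and 5.98 in regular ones. With DMSO the values were 7.89 and 7.87 against 6.11 and 6.18. Neither pair of groups overlapped, and the differences were 2.34 ± 0.07 (adjusted p = 4.6e-11) and 1.74 ± 0.06 (adjusted p = 4.43e-14) on the log2 scale. P4HA3, the third alpha subunit (Entrez 283208, chr11:74250146-74311640), was barely detected, with 32 and 23 reads in untreated ischemic libraries and 18 and 10 in regular ones. Its log2 difference of 1.01 ± 0.37 (adjusted p = 0.0267) was just past the 2-fold threshold in untreated cells, and that of 0.54 ± 0.31 (adjusted p = 0.125) with DMSO was not called. The untreated call was lost without ischemic replicate 1 or without regular replicate 2, where the values were between 0.57 and 1.46 over the 4 fits that leave out 1 library. It was also lost with libraries centred on their median (0.97) and with quantile normalization (0.85).

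Among the lysyl hydroxylases, PLOD1 and PLOD2 rose by more than 2-fold in both experiments and PLOD3 stayed under that threshold. PLOD1 (Entrez 5351, chr1:11934717-11975537), which modifies lysines within the triple helix, stood at 9.73 and 9.85 in untreated ischemic and at 7.75 and 7.74 in regular libraries, a log2 difference of 2.05 ± 0.07 (adjusted p = 1.3e-10). With DMSO it stood at 9.52 and 9.51 against 7.79 and 7.79, a difference of 1.73 ± 0.05 (adjusted p = 8.42e-15). The spread between its 2 libraries was far smaller than the step between the cultures in both experiments. PLOD2 (Entrez 5352, chr3:146069440-146161184), which modifies lysines in the end segments of collagen, stood at 9.15 and 9.11 against 6.84 and 6.85 in untreated cells, and at 8.31 and 8.21 against 6.84 and 6.75 with DMSO. Its differences were 2.29 ± 0.06 (adjusted p = 2.65e-11) and 1.47 ± 0.07 (adjusted p = 9.35e-12).

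PLOD3 (Entrez 8985, chr7:101205984-101217581), which also attaches sugars to hydroxylysine, stood at 9.57 and 9.64 in untreated ischemic and at 9.05 and 9.13 in regular libraries. With DMSO its values were 9.56 and 9.62 against 9.08 and 9.21. The cultures did not overlap, but the differences of 0.51 ± 0.07 (adjusted p = 2.87e-05) and 0.44 ± 0.06 (adjusted p = 4.3e-06) are 1.43-fold and 1.36-fold, under the 2-fold threshold. Quantile normalization put PLOD3 at 0.26 in untreated cells and at 0.056 (adjusted p = 0.462) with DMSO. Its 95% intervals, 0.36 to 0.66 and 0.31 to 0.57, lay below those of PLOD1 and PLOD2 in the same experiment.

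The lysyl oxidases differed from each other in level, and with DMSO LOXL2 rose while LOX, which had few reads, fell. LOXL2 (Entrez 4017), an abundant secreted lysyl oxidase, stood at 9.47 and 9.61 in untreated ischemic and at 8.40 and 8.48 in regular libraries, a log2 difference of 1.10 ± 0.07 (adjusted p = 4.89e-08). With DMSO it stood at 9.17 and 9.16 against 7.95 and 8.05, a difference of 1.17 ± 0.06 (adjusted p = 1.13e-11). Both are close to the 2-fold threshold, and quantile normalization of the libraries put them at 0.87 and 0.89, under it. With MK25 in both cultures the difference was 1.02 ± 0.06 (adjusted p = 9.71e-11), and the 2-fold call was lost without ischemic replicate 2 or without regular replicate 1, where the 4 fits that leave out 1 library gave values between 0.99 and 1.06. The cultures did not overlap in untreated cells or with DMSO.

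LOX (Entrez 4015, chr5:122063195-122078259), the founding member of the family, was near the limit of detection in all 8 groups. Its reads were 35 and 22 in untreated ischemic and 24 and 27 in regular libraries. As log2 values these were 0.43 and 0.17 against 0.08 and 0.06, without overlap. The log2 difference was 0.23 ± 0.29 (adjusted p = 0.492), with a 95% interval of -0.40 to 0.86. With DMSO there were 13 and 17 reads under ischemia and 39 and 33 in regular culture, without overlap, and LOX fell by 1.12 ± 0.35 on the log2 scale (adjusted p = 0.00863), which is 2.18-fold lower. With MK25 in both cultures it fell by 1.11 ± 0.35 (adjusted p = 0.00967), a call that was lost without ischemic replicate 2 or without regular replicate 2, where the 4 fits that leave out 1 library gave values between -1.46 and -0.76. With VX745 the difference was -0.27 ± 0.35 (adjusted p = 0.509). LOX was thus not called higher in any of the 4 comparisons of cultures, with upper 95% limits of 0.86, -0.39, 0.47 and -0.37 in untreated, DMSO, VX745 and MK25 cells.

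ERO1A (Entrez 30001, chr14:52639915-52695558) stood at 8.39 and 8.38 in untreated ischemic libraries and at 6.30 and 6.18 in regular ones. With DMSO it stood at 7.79 and 7.76 against 6.35 and 6.28. The cultures did not overlap, and the log2 differences were 2.14 ± 0.07 (adjusted p = 8.61e-11) and 1.46 ± 0.08 (adjusted p = 2.06e-11). Its paralog ERO1B, which does the same reaction, moved the other way: it fell by 1.01 ± 0.10 (adjusted p = 1.32e-07) with DMSO and by 0.82 ± 0.12 (adjusted p = 7.34e-05) in untreated cells, the latter under 2-fold. Per kilobase of the longest transcript, the level of ERO1A was 4.70 and 4.74 times that of ERO1B in the regular DMSO libraries and 26.9 and 25.6 times in the ischemic DMSO libraries. The size of these ratios depends on the length used, as the median ERO1A transcript (974.5 bases) is far shorter than its longest (5139 bases).

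Levels can be compared between genes only per length, and CPM per kilobase of the longest GENCODE transcript was used for this. Within the lysyl hydroxylases, PLOD3 held 67.0% ± 1.7 (SD, n = 2) of the family total in regular DMSO libraries and 46.4% ± 1.1 in ischemic ones, while PLOD1 held 24.8% ± 1.0 and 42.0% ± 0.5. PLOD2 held 8.22% ± 0.69 and 11.6% ± 0.6. PLOD3 was thus the leading lysyl hydroxylase in both cultures with DMSO, and PLOD1 came close to it under ischemia. In untreated cells PLOD1, at 42.7% ± 1.1, led PLOD3, at 39.5% ± 0.1, under ischemia. With the median transcript length PLOD1 led there as well, at 47.3% against 45.4%. The family total was 300.2 ± 11.6 CPM per kilobase in regular and 587.5 ± 3.8 in ischemic DMSO libraries.

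Within the alpha subunits, P4HA1 held 56.8% ± 1.8 of the total in regular and 67.1% ± 0.2 in ischemic DMSO libraries, and 60.7% ± 1.3 and 72.6% ± 1.3 in untreated cells. P4HA3 held 1.28% ± 0.51 in regular and 0.43% ± 0.03 in ischemic DMSO libraries. Which of P4HA1 and P4HA2 leads depends on the length used, since the median transcript of P4HA2 (1023 bases) is far shorter than its longest (4553 bases): with median lengths P4HA1 held 23.9% and 32.4% in the same DMSO libraries. The rise in the share of P4HA1 holds with either length. Relative to P4HB, its partner in the enzyme, P4HA1 went from ratios of 0.0427 and 0.0391 in regular DMSO libraries to 0.138 and 0.131 in ischemic ones. P4HB itself was 0.63 ± 0.06 higher on the log2 scale with DMSO (adjusted p = 3.18e-08), under 2-fold. In the lysyl oxidase family, LOXL2 held 62.7% ± 1.2 and LOXL3 37.1% ± 1.2 in regular DMSO libraries, and 75.7% ± 0.8 and 24.2% ± 0.8 in ischemic ones, while LOX held 0.23% and 0.0535%. With median transcript lengths LOXL3 held 15.5% and 9.07% and PLOD2 3.13% and 4.55% in the same 2 groups, so these shares are tied to the length used, and each moved the same way between cultures with either length.

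**Figure D3:**
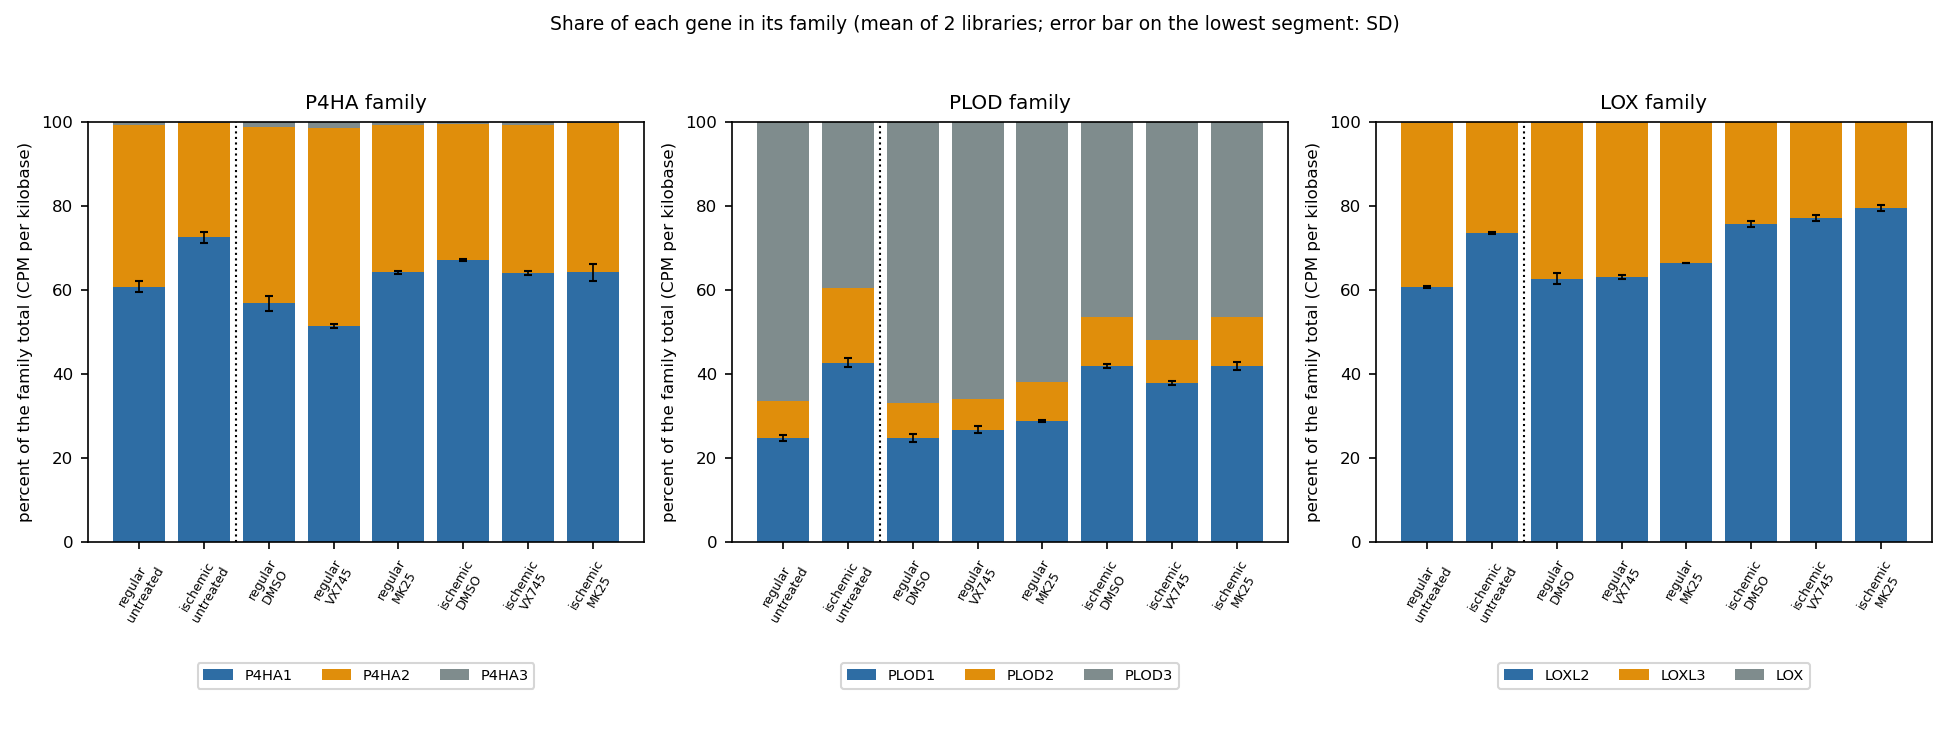
Share of each gene in the summed level of its family (vertical axis, percent of CPM per kilobase of the longest transcript) in the 8 groups (horizontal axis). Stacked bars are means of 2 libraries, and error bars on the lowest segment are SD. P4HA1, PLOD1 and LOXL2 take a larger share in the ischemic DMSO libraries (67.1%, 42.0% and 75.7%) than in the regular ones (56.8%, 24.8% and 62.7%).

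The inhibitor comparisons ask whether p38 and MK2 act on these genes. In ischemic culture no member passed both the adjusted p and the 1.5-fold threshold with VX745, where 5.26% of all genes did, or with MK25, where 9.67% did. Voom on the recovered reads also called 0 in both, and at an unadjusted p under 0.05 and any size 4 members were lower with VX745, beside 20.4% of all genes, and 2 were higher and 3 lower with MK25, beside 23.9% and 25.7%. At an adjusted p under 0.05 without a fold threshold, 3 members were lower with VX745, beside 14.9% of all genes, and 2 were higher and 3 lower with MK25, beside 19.8% and 22.0%. Both inhibitors were compared with the same DMSO libraries, so their values are set side by side only.

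The 3 members lower with VX745 under ischemia were PLOD2, at 7.85 and 7.83 against 8.31 and 8.21 with DMSO, PLOD1, at 9.16 and 9.10 against 9.52 and 9.51, and P4HA1, at 7.93 and 7.96 against 8.27 and 8.23. Their log2 differences were -0.42 ± 0.07 (adjusted p = 0.000464), -0.39 ± 0.05 (adjusted p = 4.09e-05) and -0.31 ± 0.05 (adjusted p = 0.000544). In each the VX745 libraries lay below both DMSO libraries, and the steps are 1.34-fold, 1.31-fold and 1.24-fold, small beside the rise with ischemia itself. Quantile normalization put them at -0.29 for PLOD2, -0.15 for PLOD1 and -0.17 for P4HA1, with adjusted p of 0.0126, 0.0458 and 0.0359. With MK25 under ischemia, ERO1A stood at 7.87 and 8.14 (0.23 ± 0.08 higher, adjusted p = 0.024) and P4HA2 at 8.09 and 8.0 (0.17 ± 0.06 higher, adjusted p = 0.0319). PLOD1 (-0.18 ± 0.05, adjusted p = 0.0103), PLOD2 (-0.20 ± 0.07, adjusted p = 0.0405) and PLOD3 (-0.18 ± 0.06, adjusted p = 0.0262) were lower, and quantile normalization turned the sign of PLOD1 to 0.078 and of PLOD3 to 0.10 and put PLOD2 at -0.052 (adjusted p = 0.627). None of these 5 kept an adjusted p under 0.05 in all 4 fits that leave out 1 library: ERO1A, P4HA2, PLOD1 and PLOD2 lost it in 3 and PLOD3 in 4. The lowest value of ERO1A was 0.093 (adjusted p = 0.385), without ischemic MK25 replicate 2, and that of PLOD2 closest to 0 was -0.076 (adjusted p = 0.487), without ischemic MK25 replicate 1. For LOXL2 the intervals were -0.12 to 0.13 with VX745 and -0.07 to 0.18 with MK25, while quantile normalization put it higher with both, at 0.20 (adjusted p = 0.0237) and 0.28 (adjusted p = 0.00171).

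In regular culture, VX745 called no member, and only 0.0998% of all genes were called. Voom called 0 members as well, and at an unadjusted p under 0.05 1 was higher and 2 were lower, beside 6.99% and 7.81% of all genes. With MK25, by contrast, P4HA1 rose by 0.89 ± 0.05 on the log2 scale (adjusted p = 3.04e-09), which is 1.85-fold, and it was the 1 member of 9 called higher, beside 1.88% of all genes. Its values were 6.76 and 6.83 with MK25 and 5.93 and 5.88 with DMSO, with no overlap. Without a fold threshold, 5 members were higher at an adjusted p under 0.05, beside 7.0% of all genes. The other 4 were P4HA2 (0.46 ± 0.06, adjusted p = 4.98e-05), ERO1A (0.28 ± 0.08, adjusted p = 0.0256), LOXL2 (0.21 ± 0.06, adjusted p = 0.0302) and PLOD1 (0.19 ± 0.05, adjusted p = 0.0223), all under 1.5-fold. P4HA2 kept its adjusted p under 0.05 in all 4 fits that leave out 1 library, whereas ERO1A, LOXL2 and PLOD1 lost it in 2 of 4 each, with adjusted p of up to 0.193, 0.142 and 0.133. For PLOD2 the difference was 0.15 ± 0.07 (adjusted p = 0.193).

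Several hypoxia reference genes were higher beside P4HA1 in regular culture given MK25. Of the 8, 6 were called higher there, with a median log2 fold change of 1.39 beside 0.00239 over all genes. PDK1, which turns off pyruvate dehydrogenase, rose by 1.86 ± 0.08 (adjusted p = 2.83e-11), and ANKRD37, an ankyrin repeat protein, by 2.02 ± 0.15 (adjusted p = 5.2e-08). CA9, a carbonic anhydrase used as a marker of hypoxia, stood at -1.77 and 0.27 in the DMSO libraries, which were far apart, and at 2.14 and 2.30 with MK25. With VX745 in regular culture the 8 genes differed by between -0.94 and 0.54, with a median of 0.03. The part of whatever moved these genes in the rise of P4HA1 was not tested.

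**Figure D4:**
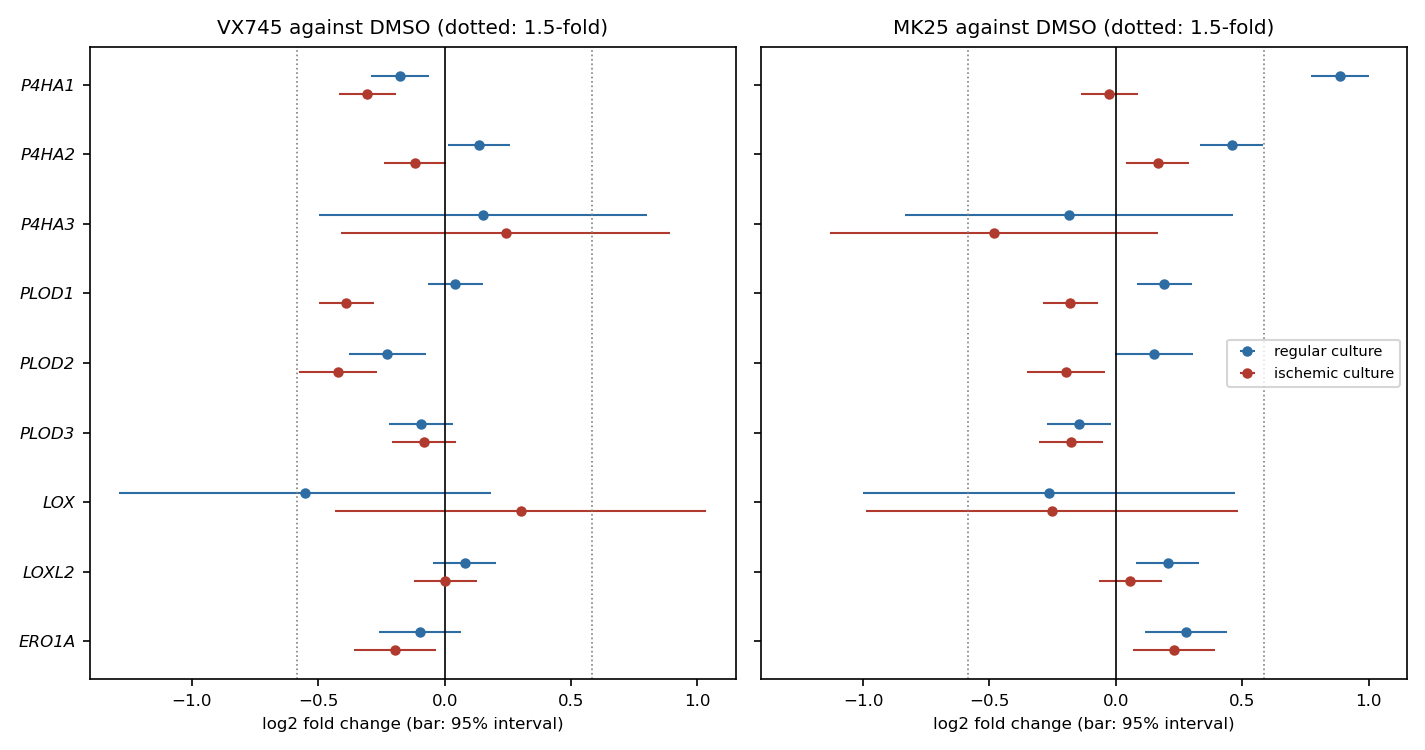
Log2 fold change of VX745 (left) and MK25 (right) over DMSO (horizontal axis) for each listed member (vertical axis), in regular and ischemic culture. Points are limma estimates, bars are 95% intervals and dotted lines mark a 1.5-fold change. P4HA1 with MK25 in regular culture (0.89) is the one estimate whose interval lies wholly beyond 1.5-fold, and the intervals of P4HA3 and LOX are wide.

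Whether an inhibitor acted differently in the 2 cultures was tested by the interaction, the effect under ischemia minus that in regular culture, at an adjusted p under 0.05 and any size. For MK25, 4 of 9 members had a negative interaction, beside 13.9% of all genes, and these were P4HA1 (-0.91 ± 0.08, adjusted p = 4.82e-07), PLOD1 (-0.37 ± 0.07, adjusted p = 0.0015), PLOD2 (-0.35 ± 0.10, adjusted p = 0.0214) and P4HA2 (-0.29 ± 0.08, adjusted p = 0.016). P4HA1 was higher with MK25 in regular culture and differed by -0.03 ± 0.05 (adjusted p = 0.739) under ischemia, so that its rise with ischemia was 2.34 with DMSO and 1.43 with MK25. The call of PLOD2 was lost in 4 of the 8 fits that leave out 1 library and that of P4HA2 in 3, with values from -0.46 to -0.23 and from -0.35 to -0.23. PLOD2 lost its call without ischemic MK25 replicate 1, ischemic DMSO replicate 1, regular MK25 replicate 2 or regular DMSO replicate 2, and P4HA2 without ischemic MK25 replicate 2, ischemic DMSO replicate 1 or regular MK25 replicate 2. With quantile normalization only P4HA1 kept a negative call. For VX745, 1 of 9 had a negative interaction, PLOD1 (-0.43 ± 0.07, adjusted p = 0.00183), beside 6.0% of all genes, and quantile normalization put it at -0.21 (adjusted p = 0.0797). For ERO1A the interactions were -0.05 ± 0.11 and -0.10 ± 0.11, with 95% intervals of -0.28 to 0.18 and -0.33 to 0.13.

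MK25 and VX745 were also compared directly. Under ischemia no member was called at 1.5-fold, beside 3.96% of all genes, and voom called none, while 5 were higher with MK25 at an adjusted p under 0.05 and any size, beside 8.22%. At an unadjusted p under 0.05, 5 were higher and 1 lower, beside 14.3% and 16.4% of all genes. Those 5 were ERO1A (0.43 ± 0.08, adjusted p = 0.000771), P4HA2 (0.28 ± 0.06), P4HA1 (0.28 ± 0.05), PLOD2 (0.23 ± 0.07) and PLOD1 (0.21 ± 0.05). In regular culture P4HA1 was 1.06 ± 0.05 higher with MK25 (2.09-fold, adjusted p = 2.23e-10), the 1 member called, beside 1.23% of all genes. At any size, 4 members were higher with MK25 there, beside 3.96% of genes, and the other 3 were ERO1A (0.38 ± 0.08), PLOD2 (0.38 ± 0.07) and P4HA2 (0.32 ± 0.06). Leaving out 1 library at a time, PLOD2 lost its adjusted p under 0.05 in 3 of 4 fits and PLOD1 in 2 of 4 under ischemia, and PLOD2 and ERO1A in 2 of 4 each in regular culture. The value of PLOD2 under ischemia was lowest, at 0.11 (adjusted p = 0.436), without ischemic MK25 replicate 2.

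In the second experiment the order of the groups was much alike among the strongly expressed members. P4HA1, P4HA2, PLOD1, PLOD2 and ERO1A had their 3 ischemic groups above regular MK25, followed by regular DMSO and regular VX745 in either order. For P4HA2 all neighbours in this order were apart, from ischemic MK25 (8.05) and DMSO (7.88) to regular VX745 (6.28) and DMSO (6.14). For PLOD3 the 3 regular groups ran from DMSO (9.15) through VX745 (9.05) to MK25 (9.0), with overlap between neighbours. LOX had its 3 regular groups on top, from regular DMSO (0.44) and regular MK25 (0.18) down to ischemic DMSO (-0.68) and ischemic MK25 (-0.93), and its ischemic VX745 group overlapped both neighbours. Over the 12 libraries the Pearson correlation with P4HA1 was 0.98 for P4HA2 and ERO1A, 0.97 for PLOD1, PLOD2 and LOXL2, 0.85 for PLOD3, 0.44 for P4HA3 and -0.78 for LOX. These libraries share the step between cultures, which sets most of each value.

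The genes whose values followed each member most closely were sought among 10053 genes whose log2 values averaged 3 or more, by Pearson correlation over the 12 libraries of the second experiment. For P4HA1 they were HK2, BNIP3L and SLC2A3, with r of 0.998, 0.997 and 0.997. For ERO1A they were ZNF667, TPD52 and MKRN1, for PLOD2 TAX1BP1, ZNF841 and PPP3CC, and for LOXL2 ZNF337 and MLLT3, with r of 0.99 or above in each case. P4HA2 was followed by TNIP1, BCKDHA and ZNF395, and PLOD1 by NBR1, SLC1A4 and FYN. For LOX the genes given are TMED4 (0.93) and GORASP1 (0.91), a weaker likeness in a gene with few reads. P4HA3 and PLOD3 spanned less than 1 on the log2 scale and were left out.

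Among the rest of the collagen pathway, 14 other collagen-modifying enzymes and partners were listed. With DMSO 11 of them differed at an adjusted p under 0.05, beside 69.6% of all genes, and 2 also by 2-fold, beside 17.1%. Both were lower, and the list had a median of 0.12 on the log2 scale, beside -0.01 over all genes. The pair were P3H1, a prolyl 3-hydroxylase (-1.09 ± 0.06, adjusted p = 2.08e-11), and P3H4, a related protein that works with lysyl hydroxylase (-1.08 ± 0.06, adjusted p = 2.07e-11). P3H1 stood at 5.79 to 5.80 in the ischemic DMSO libraries and at 6.85 to 6.93 in the regular ones. MK25 raised it by 0.93 ± 0.06 under ischemia (adjusted p = 4.26e-09), but not in regular culture (-0.04 ± 0.06, adjusted p = 0.71), with an interaction of 0.96 ± 0.08 (adjusted p = 5.13e-07). With VX745 under ischemia P3H1 was also higher than with DMSO, by 0.52, the largest value of this list and under 1.5-fold. In untreated cells P3H1 differed by -0.38 ± 0.08 (adjusted p = 0.000667), under 2-fold. SERPINH1, the collagen chaperone, and COLGALT1, which attaches galactose to hydroxylysine, differed by 0.04 ± 0.05 (adjusted p = 0.565) and 0.16 ± 0.05 (adjusted p = 0.0144) with DMSO.

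LOXL3, the remaining listed lysyl oxidase, was 0.29 ± 0.06 higher with DMSO (adjusted p = 0.000309) and 0.25 ± 0.07 in untreated cells (adjusted p = 0.00749), and LOXL4 was not listed. Of 15 genes of procollagen processing and export, 11 were listed and 1 rose with DMSO, MIA2 (1.78 ± 0.08, adjusted p = 3.82e-12), which works at the sites where large cargo leaves the endoplasmic reticulum. The median of that list was 0.24. Of 16 genes of disulfide formation, a list that also holds P4HB, ERO1B was the only one called with DMSO, and the median was -0.01. Of 16 collagens and elastin, 13 were listed. COL6A2, a chain of collagen VI, rose by 1.08 ± 0.07 (adjusted p = 1.8e-10) and COL2A1, which is scarcely expressed here, fell by 1.27 ± 0.30 (adjusted p = 0.00126), with a list median of -0.15. Among 6 genes of ascorbate uptake and recycling, 5 were listed and GLRX, a glutaredoxin that can reduce dehydroascorbate, rose by 2.57 ± 0.11 (adjusted p = 1.48e-12), with a list median of 0.13.

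Of the 8 hypoxia reference genes, 7 rose with DMSO, with a median of 4.26, well above the 1.46 of the members, and all 8 rose in untreated cells. The largest changes with DMSO were those of CA9 (7.67 ± 0.38), ADM, a vasodilator peptide (6.09 ± 0.08), ANKRD37 (4.80 ± 0.15) and PDK1 (4.27 ± 0.08). Of the glioma and neural markers, VIM, an intermediate filament protein, rose by 1.27, while SOX2, a stem cell factor, fell by 2.23 and NES, another filament protein, by 1.06. Of the 6 listed markers of other cell types, 4 differed with DMSO at an adjusted p under 0.05, beside the 69.6% of all genes given above, and the 6 log2 differences ran from -0.63 to 0.94.

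**Figure D5:**
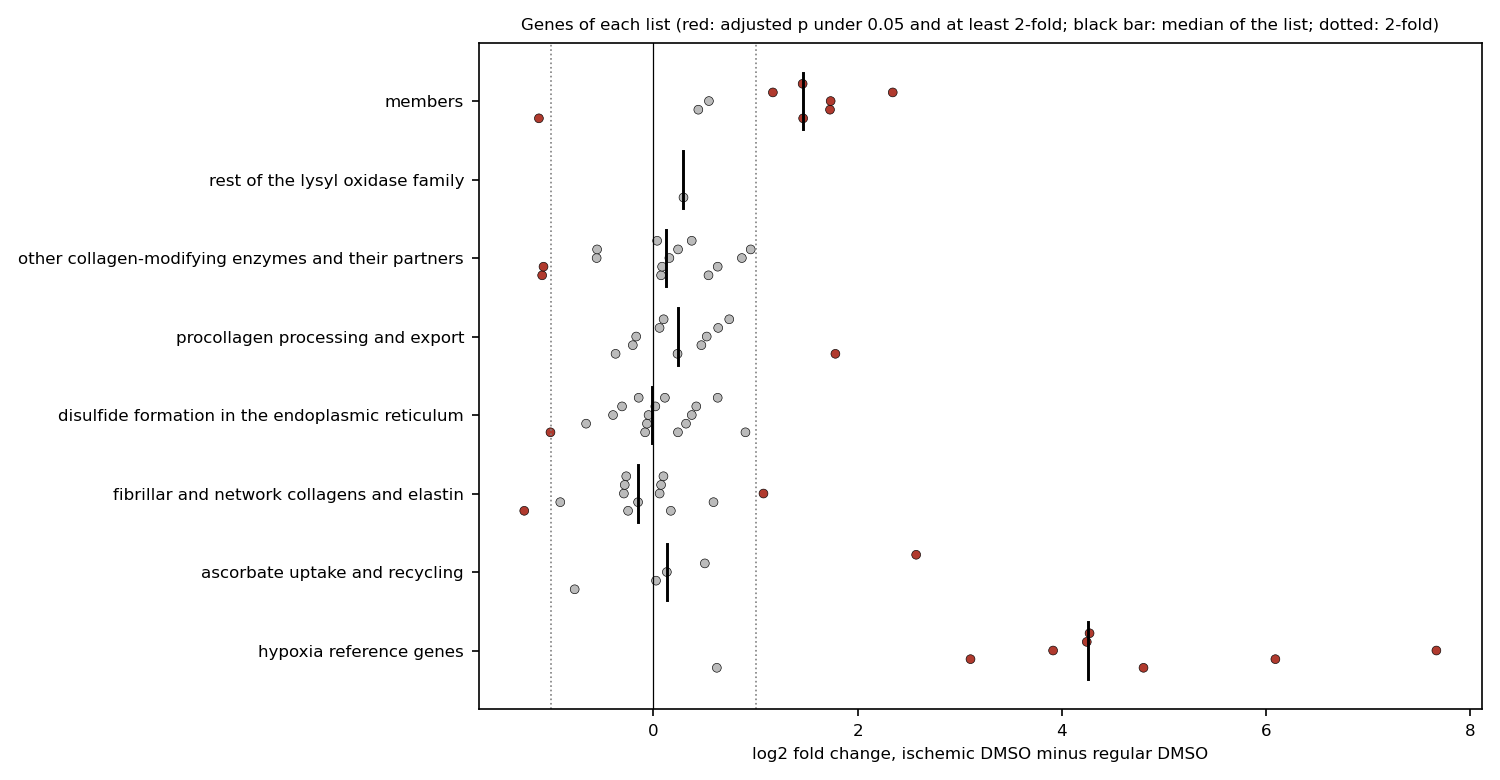
Log2 fold change of ischemic over regular culture with DMSO (horizontal axis) for the members and 7 further lists (vertical axis). Each point is a gene, red where called at an adjusted p under 0.05 and at least 2-fold, and black bars are list medians. The medians of the members (1.46) and of the hypoxia reference genes (4.26) stand apart from those of the other lists, which lie between -0.15 and 0.29.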

How the data were processed

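RNA of LN229 cells was sequenced in 16 libraries, 2 in each of 8 groups. Per the labels, libraries were made with the SMART-Seq mRNA HT and Nextera XT kits. The sources used here state no strand setting for the counting, so reads of a gene and of its antisense partner cannot be told apart. The authors aligned reads to GRCh38 with HISAT2 and normalized with edgeR, and versions are not given in the sources used here. The deposited values are log2 normalized CPM in 2 tables, 1 per experiment, with Entrez gene numbers. Columns numbered S1 and S2 within a group were read as replicates 1 and 2. Symbols and positions came from RefSeq (GRCh38.p14) and matched 99.4% and 99.3% of genes. Transcript lengths came from GENCODE.

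Whole reads were recovered from the steps between low values (100% of values within 0.1 of a whole read). Libraries held 22346073 to 28373993 reads (first experiment) and 20122017 to 37562668 reads (second), and precision estimates from reads cover counting error only. Replicates differed by more than sampling noise. Each table was fitted separately over all genes and groups with limma (version 3.58.1, R 4.3.3) with a variance trend, in 12 comparisons, with Benjamini-Hochberg adjustment over all genes of the table. Calls needed an adjusted p under 0.05 and 2-fold (cultures) or 1.5-fold (inhibitors), and any size for interactions. The fits were tried on simulated counts with the same spread set for all genes and with changes of at least 2-fold. Smaller changes, and changes in genes with the fewest reads, were not simulated. Alternatives were voom on recovered reads, median centring, quantile normalization, a mean log2 value of at least 0, no variance trend, only the groups compared, a replicate block, any fold change, and leaving out each library.

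The members and lists were chosen with earlier results of these data known. Named were all members, from each list the called genes with the 4 largest changes with DMSO, P4HB, P3H1, SERPINH1, ERO1B, LOXL3, LOXL4 and COLGALT1, and per member that spanned at least 1 the 3 genes of highest correlation among those with a mean of at least 3. Of the genes named by correlation, 1 each for LOX and LOXL2 is not reported here.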

Additional observations from a re-analysis of the deposited data

Results flagged for a closer look

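The effect of an inhibitor differed between the 2 cultures, by the interaction term in limma with Benjamini-Hochberg adjustment over all genes, in 5 cases, each given as the log2 effect under ischemia minus that in regular culture. For MK25 the value was -0.91 ± 0.08 in P4HA1 (adjusted p = 4.82e-07), -0.37 ± 0.07 in PLOD1 (adjusted p = 0.0015), -0.35 ± 0.10 in PLOD2 (adjusted p = 0.0214) and -0.29 ± 0.08 in P4HA2 (adjusted p = 0.016). For VX745 it was -0.43 ± 0.07 in PLOD1 (adjusted p = 0.00183). Of all genes, 13.9% had a negative interaction with MK25 and 6.0% with VX745. With quantile normalization only P4HA1 kept a negative call for MK25 and no member did for VX745. Over the fits that leave out 1 library, PLOD2 with MK25 ran from -0.46 to -0.23 and P4HA2 from -0.35 to -0.23. P4HA1 and P4HA2 were higher with MK25 in regular culture (0.89 and 0.46), PLOD1 was higher there (0.19) and lower under ischemia (-0.18), and PLOD2 gave 0.15 and -0.20. Quantile normalization turned the -0.18 of PLOD1 to 0.078. Groups of 2 libraries were too small for a search for outlying samples.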

How the results depend on the processing

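Over the single members, 491 of 504 values from fits that leave out 1 library kept their side of the threshold and 13 lost the call. Under the other alternatives 717 of 735 did so, 12 lost a call, 3 gained one and 3 reversed. A change of sign counted as a reversal only where either fit had an adjusted p under 0.05. Values near 0 could therefore change sign uncounted. For ischemic against regular culture with VX745, LOX ran from -0.58 to 0.043 over the fits that leave out 1 library. A filter on a mean log2 value of at least 0 removed LOX, so that 8 members were tested and 0 were called lower by culture with DMSO and with MK25. Without a fold threshold, 3 members were lower with VX745 under ischemia, 2 were higher and 3 lower with MK25 under ischemia, 5 were higher with MK25 in regular culture, and 5 (ischemic) and 4 (regular) were higher with MK25 than with VX745. The negative interactions of VX745 numbered 2 with centring, 2 with only the groups compared and 0 with quantile normalization. Those of MK25 numbered 2 without a variance trend and 1 with quantile normalization, which also gave 1 positive one. With only the groups compared, 1 member, P4HA3, was lower with MK25 than with VX745 under ischemia. Quantile normalization reversed PLOD1 (0.078, adjusted p = 0.245) and PLOD3 (0.10, adjusted p = 0.271) for MK25 against DMSO under ischemia, and the MK25 interaction of PLOD3 (0.29, adjusted p = 0.0367). The cause of these changes was not tested beyond the filter and the fold threshold.

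Leaving out 1 library gave 6 to 7 members called higher by culture in untreated cells, 5 to 6 higher and 0 to 1 lower with MK25 (0 without ischemic MK25 replicate 2 or regular MK25 replicate 2), and 2 to 4 negative interactions of MK25 (2 without ischemic DMSO replicate 1 or regular MK25 replicate 2). Same-numbered libraries deviated together with r = 0.153 in the first experiment and r from -0.094 to 0.128 in the second, so numbers were not taken as pairs. The replicate block changed no count of members (7 higher in untreated cells, 6 with DMSO, 4 negative interactions of MK25). Quantile normalization moved the share of higher calls over all genes from 82.8% to 62.6% for VX745 and from 72.6% to 56.4% for MK25 under ischemia, and from 64.3% to 50% for VX745 in regular culture, where voom gave 40%. With 2 libraries per group the spread rests on all groups together, and the 10 to 65 reads of P4HA3 and LOX limit what could be detected.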
